A study of Mus musculus with 12 samples.

Results

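Notch1, a receptor of arterial endothelium, and Lnx1, a ubiquitin ligase of its inhibitor Numb, were followed in cultured mouse aortic endothelial cells labelled as lacking the transcription factor Ets1, Ets2 or both. Both genes were read at all probe sets to which the platform annotation gives exactly 1 of these symbols, 3 of 20523 in all. Notch1 has 2, called here the brighter and the dimmer, and Lnx1 has 1, whose name ends in _s_at, the suffix for probes that can match transcripts of more than 1 gene. The pair was chosen by measured values: Notch1 for its lower level in Ets1KO than in WT, and Lnx1 for its higher level in Ets2KO than in WT. These differences, and the interaction that contains them, are given as descriptions with no test.

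The cells came from aortas of mice aged 4 weeks, and each culture received a lentivirus. The group labelled DKO is Ets1-/- and Ets2fl/fl with a virus for eGFP and Cre, and Ets1KO has the same alleles with a virus for eGFP alone. Ets2KO is Ets1+/+ and Ets2fl/fl with the eGFP and Cre virus, and WT is Ets1+/+ and Ets2+/+ with the eGFP virus. Each of the 4 groups has 3 columns of values. No group carries Cre without floxed Ets2, so Cre and loss of Ets2 cannot be told apart, and floxed Ets2 cannot be told apart from loss of Ets1 in Ets1KO against WT. For Ets1KO and Ets2KO the short descriptions read wild type, against the titles and genotypes, and the titles and genotypes decided the groups. The titles speak of biological replicates, but nothing says that they came from separate animals, so p-values may measure technical spread.

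Notch receptors are cut at the cell surface after a ligand on a neighbouring cell pulls on them, and the freed intracellular part enters the nucleus, where it joins Rbpj and Mastermind proteins to switch on Hes and Hey genes. In endothelium this pathway holds back tip cells during sprouting and supports arterial identity. Numb, an endocytic adaptor, antagonises Notch, and Lnx1 is known in mouse to ubiquitinate Numb.

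The values are log2 expression from RMA. Their medians lie between 8.28 and 8.30 in the columns labelled DKO and between 9.05 and 9.15 in the others, so each value below has the median of its array subtracted ("relative to array medians") unless it is called as deposited. Between the scales every difference in a comparison changes by the same amount: as deposited, differences of the arrays labelled DKO are lower by 0.79 against WT, 0.84 against Ets1KO and 0.77 against Ets2KO. One column labelled DKO, the third, is the mean of the other two, within 1e-05, for 20521 of 20523 probe sets and was left out, so the group labelled DKO has 2 arrays and 11 arrays are used in all. Tests are limma fits over all probe sets, with p adjusted by Benjamini and Hochberg and called below 0.05. The brightest of 4 Ets1 probe sets was 2.26 higher in the arrays labelled DKO than in Ets1KO (SE 0.26, limma adjusted p = 0.000344), and the other 3 differed by 2.04, 0.93 and -0.65. The brighter Ets2 probe set was 1.40 higher in the arrays labelled DKO than in Ets2KO (SE 0.41, limma adjusted p = 0.0272) and 0.62 higher as deposited (limma adjusted p = 0.250), and it differed by 0.77 from Ets1KO (limma adjusted p = 0.174) and by 0.98 from WT (limma adjusted p = 0.0935). Both deleted genes thus go against the label of these arrays at their brightest probe sets, and where the probes lie relative to the deleted parts was not checked here. Between Ets1KO and WT the 4 Ets1 probe sets differed by -1.36, -1.27, -0.75 and -0.55 (limma adjusted p = 0.193 to 0.543), and between Ets2KO and WT the brighter Ets2 probe set differed by -0.42 (limma adjusted p = 0.554). By Xist and Eif2s3y, arrays labelled DKO and those of Ets1KO look female, those of Ets2KO male, and WT holds 1 male-like array (replicate 1) and 2 female-like arrays.

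Because Ets factors bind DNA at a GGAA core, the start-site regions of both genes are shown, with each GGAA in capitals (TTCC is GGAA on the opposite strand). They are the RefSeq windows from 250 bases before to 50 after the gene's start in GRCm38.p6, both genes lying on the minus strand, at chr2:26503773-26504072 for Notch1 and chr5:74702854-74703153 for Lnx1.
Notch1: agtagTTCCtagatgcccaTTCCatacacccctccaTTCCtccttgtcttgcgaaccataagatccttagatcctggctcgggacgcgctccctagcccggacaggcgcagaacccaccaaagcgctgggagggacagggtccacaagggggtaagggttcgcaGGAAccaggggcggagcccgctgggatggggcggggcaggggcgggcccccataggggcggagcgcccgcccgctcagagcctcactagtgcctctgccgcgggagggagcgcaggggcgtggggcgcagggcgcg
Lnx1: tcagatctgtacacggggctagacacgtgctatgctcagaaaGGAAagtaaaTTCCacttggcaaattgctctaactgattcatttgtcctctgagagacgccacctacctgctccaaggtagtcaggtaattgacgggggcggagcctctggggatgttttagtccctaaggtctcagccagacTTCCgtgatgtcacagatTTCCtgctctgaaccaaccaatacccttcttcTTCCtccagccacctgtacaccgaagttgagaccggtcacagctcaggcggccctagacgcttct
The Notch1 window holds 4 GGAA cores, with their first printed base at -245, -231, -214 and -86 from the start. The Lnx1 window holds 5, at -208, -198, -65, -47 and -15, and the one at -65 lies within the longer GGAAGT on the opposite strand. Of 32851 windows of 300 bases, both strands searched, 96% hold GGAA, with a median of 3, 23.8% hold GGAAGT, and 3.89% hold CCGGAAGT, which neither gene has in its window. The shorter motifs lie within the longer ones. These matches describe the sequence and no binding was measured.

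Notch1 transcript levels ran, from low to high, from the arrays labelled DKO through Ets1KO and WT to Ets2KO. At the brighter probe set Notch1 read -0.87 and -0.68 relative to array medians in the arrays labelled DKO. It read -0.32, -0.70 and -0.52 in Ets1KO, 1.41, 1.14 and 1.78 in Ets2KO, and 0.67, 0.34 and 0.45 in WT. The Ets1KO arrays all lie below the WT arrays and the Ets2KO arrays all above them, while the arrays labelled DKO and Ets1KO overlap. As deposited the group means were 7.52 ± 0.13 (n = 2) in the arrays labelled DKO, 8.63 ± 0.18 in Ets1KO, 10.51 ± 0.33 in Ets2KO and 9.58 ± 0.13 in WT (SD, n = 3 each).

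The dimmer Notch1 probe set gave the same order with smaller steps. It read -1.69 and -1.81 in the arrays labelled DKO, -1.38, -1.40 and -1.70 in Ets1KO, -0.30, -0.57 and -0.54 in Ets2KO, and -0.78, -0.96 and -0.67 in WT, all relative to array medians. Again Ets1KO lies below WT and Ets2KO above it without overlap. Both probe sets follow each other with r = 0.94 over the 11 arrays, a description of arrays that share a normalization. The brighter exceeds the dimmer by 0.98 ± 0.23 in the arrays labelled DKO, by 0.98 ± 0.25 in Ets1KO, by 1.91 ± 0.35 in Ets2KO and by 1.29 ± 0.17 in WT, so the spacing between them is widest in Ets2KO.

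Lnx1 had the same order of groups. It read -2.12 and -2.03 relative to array medians in the arrays labelled DKO. It read -1.57, -1.55 and -1.73 in Ets1KO, 0.29, 0.42 and 0.66 in Ets2KO, and -1.04, -1.52 and -1.15 in WT. No 2 groups overlap, but the nearest Ets1KO and WT arrays, at -1.55 and -1.52, are almost level. As deposited Lnx1 averaged 6.22 ± 0.06 (n = 2) in the arrays labelled DKO, 7.52 ± 0.09 in Ets1KO, 9.53 ± 0.19 in Ets2KO and 7.86 ± 0.22 in WT (SD, n = 3 each).

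Ranks within an array do not depend on its median. The brighter Notch1 probe set stood at percentiles 32.7 to 36.7 of its array in the arrays labelled DKO, 36.1 to 43.3 in Ets1KO, 72.9 to 82.3 in Ets2KO and 57.4 to 63.5 in WT. The Lnx1 probe set stood at percentiles 8.05 to 9.94 in the arrays labelled DKO, 16.9 to 19.8 in Ets1KO, 56.3 to 64.2 in Ets2KO and 20.2 to 29.2 in WT. Among these 4 groups Lnx1 therefore reached the upper part of its array in Ets2KO alone. No detection call came with the values, so whether the dim readings exceed background is not known here.

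**Figure D1:**
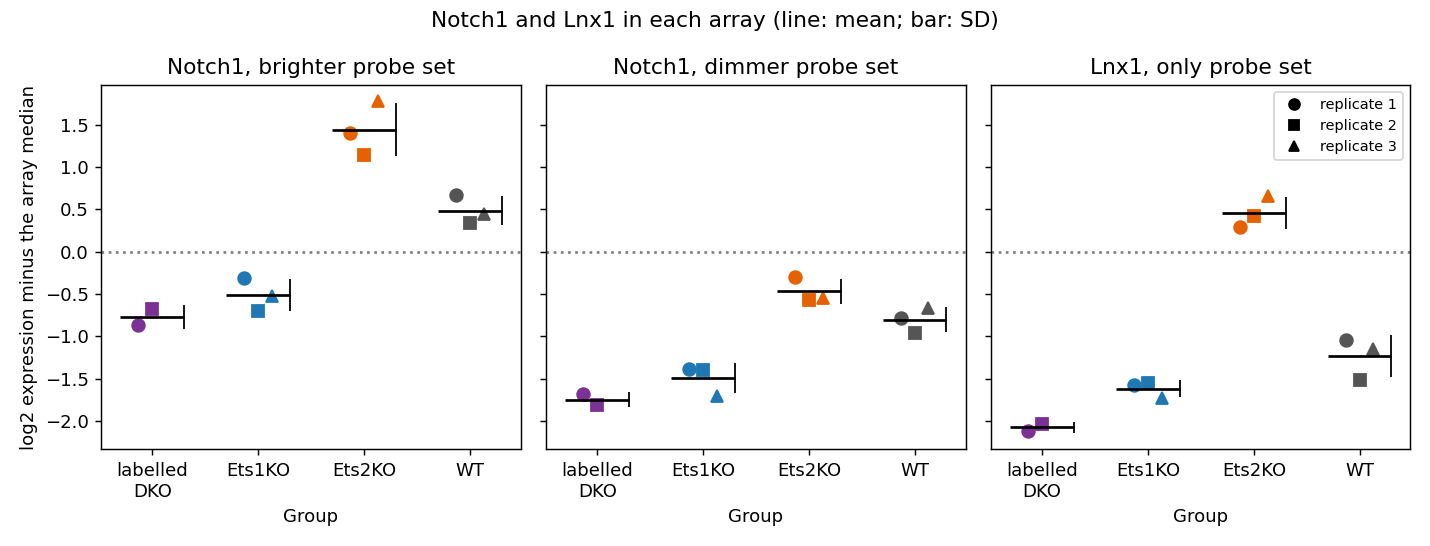
Log2 expression minus the array median (vertical axis) for the brighter and dimmer Notch1 probe sets and the Lnx1 probe set, in 2 arrays labelled DKO and 3 arrays each of Ets1KO, Ets2KO and WT. Points are arrays, horizontal lines group means and vertical bars the SD. In each panel the Ets2KO arrays are highest and those labelled DKO have the lowest mean.

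The question of what Ets1 loss does was addressed by setting Ets1KO against WT, both with the eGFP virus. Notch1, the gene chosen for this difference, differed by -0.997 (SE 0.19) at the brighter probe set and by -0.69 (SE 0.14) at the dimmer, and by -0.95 and -0.64 as deposited. Groups that do not overlap with Ets1KO lower were found for 10.7% of all probe sets, and nothing is read from that share for Notch1. Lnx1, whose groups do not overlap either, differed by -0.38 (SE 0.16, 95% interval -0.74 to -0.02, limma adjusted p = 0.537) and by -0.33 as deposited. This did not pass the test, which called 0.00487% of all probe sets lower. Against the female-like WT arrays alone the differences were -0.91 and -0.68 for Notch1 and -0.28 for Lnx1.

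Ets2 loss together with Cre was addressed by setting Ets2KO against WT. Lnx1, the gene chosen for this difference, was 1.69 higher in Ets2KO (SE 0.16), a 3.24-fold level on the linear scale, and 1.67 higher as deposited. Groups that do not overlap with Ets2KO higher were found for 14.7% of all probe sets, both Notch1 probe sets among them. Notch1 differed by 0.96 at the brighter probe set (SE 0.19, limma adjusted p = 0.0583) and by 0.33 at the dimmer (SE 0.14, limma adjusted p = 0.235). Neither passed, while 0.336% of all probe sets were called higher. For the brighter the adjusted p is 0.0171 with array weights and 0.0249 with the third column labelled DKO kept. Against WT replicate 1, the only male-like WT array, the differences were 1.497 for Lnx1 and 0.77 and 0.31 for Notch1, values with no test.

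The single losses were then set against each other, Ets2KO against Ets1KO, which differ in both Ets loci and in the virus. Lnx1 was 2.08 higher in Ets2KO (SE 0.16, limma adjusted p = 0.00302), and 1.45% of all probe sets were called higher. Notch1 was 1.95 higher at the brighter probe set (SE 0.19, limma adjusted p = 0.00829) and 1.03 higher at the dimmer (SE 0.14, limma adjusted p = 0.0207). All 3 Ets2KO arrays lie above all 3 Ets1KO arrays at each of these probe sets, as for 20% of all probe sets. The Ets1KO arrays are part of the difference for which Notch1 was chosen, and the Ets2KO arrays of that for Lnx1, so these p-values are not independent of the choice. Sex and group cannot be told apart between these arrays. With the inferred sex in the model, which only WT can estimate, the differences are 1.68 for Notch1 (limma adjusted p = 0.658) and 1.78 for Lnx1 (limma adjusted p = 0.420). Without Ets1KO replicate 2 the Notch1 difference is 1.86 with limma adjusted p = 0.0552.

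Loss of both factors, as labelled, was addressed by setting the arrays labelled DKO against WT. Ets1 and Ets2 go against that label at their brightest probe sets, as given above. Notch1 was lower in the arrays labelled DKO, with differences of -1.26 at the brighter probe set (SE 0.21, limma adjusted p = 0.00219) and -0.95 at the dimmer (SE 0.16, limma adjusted p = 0.00247). Lnx1 was lower too, by a difference of -0.84 (SE 0.18, limma adjusted p = 0.00645). The WT arrays are also part of the differences for which both genes were chosen, so these p-values are not independent of that choice. In this comparison 14.4% of all probe sets were called lower relative to array medians, so such a call was common, and groups did not overlap in that direction for 22.7%. Against the female-like WT arrays alone the differences were -1.17 and -0.94 for Notch1 and -0.74 for Lnx1. As deposited the differences were -2.05, -1.74 and -1.64, where 46% of all probe sets were called lower. Fitted on the arrays labelled DKO and WT alone, the Lnx1 call is lost (limma adjusted p = 0.0511).

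Loss of Ets2 together with Cre in cells without Ets1, as labelled, was addressed by setting the arrays labelled DKO against Ets1KO. By their labels these groups carry the same alleles, and all their arrays are female-like. Lnx1, for which this comparison uses no array of the difference it was chosen for, differed by -0.46 (SE 0.18, 95% interval -0.86 to -0.06, limma adjusted p = 0.0725). The arrays do not overlap, as for 23.2% of all probe sets with the arrays labelled DKO lower. As deposited the difference was -1.30 (limma adjusted p = 0.000269), with quantile normalization -0.57 (limma adjusted p = 0.0398), so the call depends on the scale. Notch1 differed by -0.26 at the brighter probe set (SE 0.21, 95% interval -0.73 to 0.21, limma adjusted p = 0.359) and by -0.26 at the dimmer (SE 0.16, limma adjusted p = 0.247), and by -1.10 at both as deposited, where limma called both (adjusted p = 0.00195 and 0.000496). Relative to array medians 13.7% of all probe sets were called lower, and 46% as deposited.

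The effect of an Ets1-null background in cells with Cre, as labelled, was addressed by setting the arrays labelled DKO against Ets2KO. Notch1, for which this comparison uses no array of the difference it was chosen for, was lower, with differences of -2.22 at the brighter probe set (SE 0.21, limma adjusted p = 0.000136) and -1.28 at the dimmer (SE 0.16, limma adjusted p = 0.000573). The Lnx1 difference was -2.53 (SE 0.18, limma adjusted p = 3.70e-05), but Lnx1 was chosen for its high level in these same Ets2KO arrays, so this p is not independent of the choice. As deposited the differences were -2.99, -2.05 and -3.31. Here 14.9% of all probe sets were called lower, 45.7% as deposited, and 23.5% had groups that do not overlap in that direction. These groups share no inferred sex, and with sex in the model the differences are -1.94 for the brighter Notch1 probe set (limma adjusted p = 0.0250) and -2.24 for Lnx1 (limma adjusted p = 0.00955). The interaction, which is the difference of the arrays labelled DKO from Ets1KO minus that of Ets2KO from WT, was -1.22 (SE 0.28) and -0.59 (SE 0.22) for the brighter and dimmer Notch1 probe sets and -2.15 (SE 0.24) for Lnx1, and was not tested because it contains the differences that chose the genes.

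**Figure D2:**
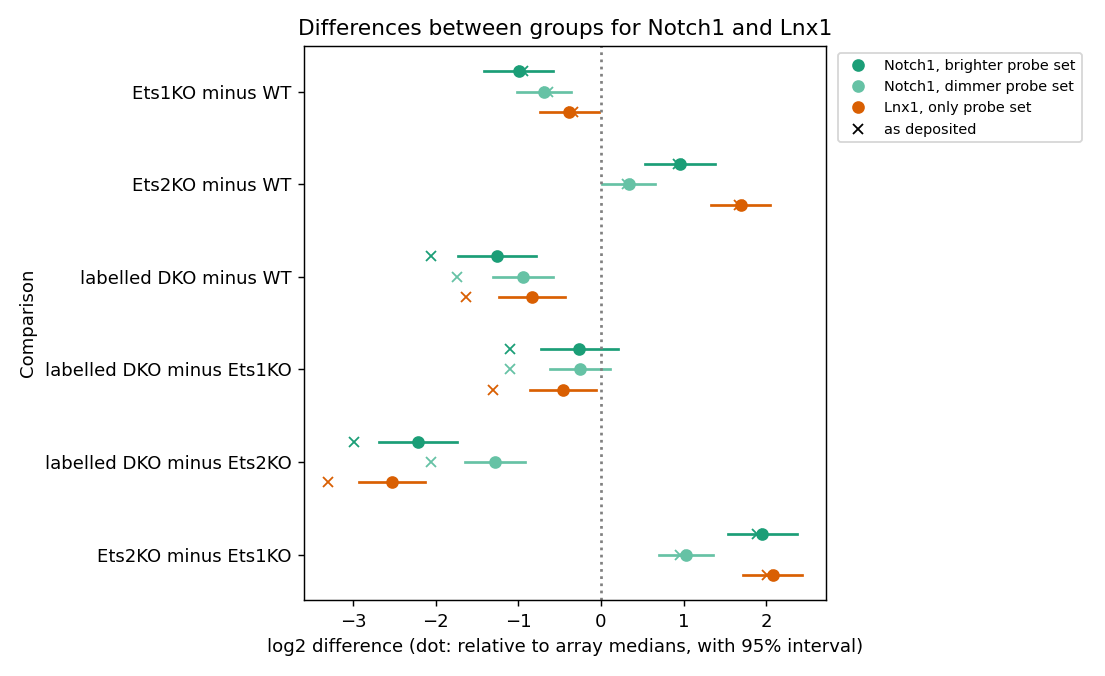
Log2 differences between groups (horizontal axis) for 6 comparisons, with dots relative to array medians, lines for 95% intervals of limma and crosses for deposited values. Dots and crosses nearly coincide where the arrays labelled DKO take no part, and crosses lie lower where they do, as for Notch1 against Ets1KO (-0.26 and -1.10).

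Whether the cells kept their labelled type was read from marker lists. Of 18 endothelial markers 5 were measured (Kdr, Flt1, Eng, Egfl7 and Cd34), while defining ones such as Pecam1 and Cdh5 were not analysed here. The mean of the 5 ran from -1.17 to -0.80 in the arrays labelled DKO, -1.49 to -1.26 in Ets1KO, -0.53 to 0.13 in Ets2KO and -0.98 to 0.40 in WT. The VEGF receptor Kdr averaged below the array median in every group (-1.87 in the arrays labelled DKO, -1.91 in Ets1KO, -1.76 in Ets2KO and -1.65 in WT), and the TGF-beta co-receptor Eng averaged -0.88, -0.84, 1.31 and 0.43 in that order of groups. The VEGF receptor Flt1 ran the other way, at 0.34, -1.09, -1.30 and -1.24. Fibroblast markers (8 of 9 measured) had means of 1.12 to 1.72, 0.13 to 0.76, 0.43 to 1.80 and 0.88 to 1.35, and the collagen gene Col1a2 averaged 5.93 in the arrays labelled DKO, 5.11 in Ets1KO, 3.59 in Ets2KO and 4.19 in WT. The fibroblast genes Pdgfra (3.34, 2.15, 4.00 and 3.06) and Dpt (-2.49, -2.40, 1.61 and -0.65) were instead highest in Ets2KO. Smooth muscle and pericyte markers (7 of 11 measured) ran from -0.08 to 1.31, -0.60 to 0.72, -0.03 to 0.82 and -0.46 to 0.78, ranges that overlap in all groups. These means hide members that part in Ets2KO. Acta2 averaged lowest there (3.98, 2.62, 0.21 and 2.86 in the same order). Rgs5 averaged highest there (-0.88, 0.51, 3.31 and -1.65), with an SD of 3.07 in Ets1KO and 1.95 in Ets2KO. Group means of Tagln, Des, Pdgfrb, Cspg4 and Notch3 lay closer together. Adipocyte markers (3 of 7 measured) ran from -1.95 to 0.09, -3.20 to -2.87, 1.17 to 3.97 and -2.19 to 2.73, and leukocyte markers (4 of 9 measured) stayed between -2.45 and -1.61 in all arrays. The endothelial and adipocyte means of every Ets2KO array thus lay above those of every array of Ets1KO or labelled DKO, as Notch1 and Lnx1 did, while WT spanned a wide range, and their part in the results was not tested. In bulk cultures fewer cells of a type and less RNA per cell cannot be told apart.

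The other genes of the Notch pathway, 85 in 7 lists of which 65 have a probe set, were read in the same fit at each gene's brightest probe set. At that probe set no gene of these lists passed limma in a single loss. Among their other probe sets 1 did, of the clathrin adaptor gene Ap2a2, with -0.81 in Ets2KO against WT (limma adjusted p = 0.0473). In Ets1KO against WT 0 of 65 were called, with 5 at an unadjusted p below 0.05 (7.69%, against 8.82% of all genes). In Ets2KO against WT 0 of 65 were called, with 6 at an unadjusted p below 0.05 (9.23%, against 18.9% of all genes). Between Ets2KO and Ets1KO 0 of 65 were called, with 13 at an unadjusted p below 0.05 (20%, against 22.8%). Over 11015 genes the shares called were 0.00908%, 0.545% and 2.73% in the same order of comparisons. The median difference over the 65 genes was -0.09 in the first, beside -0.03 over all genes, and 0.17 in the last, beside 0.05.

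The ligand Dll1 read -1.91 and -2.58 in the arrays labelled DKO, -2.34, -2.14 and -2.10 in Ets1KO, -0.95, 1.13 and -1.28 in Ets2KO, and 0.12, -1.67 and -1.08 in WT. Ets1KO lies below WT at Dll1, but the WT arrays spread over more than the gap, and the difference of -1.32 had limma adjusted p = 0.574. The ligand Jag1 differed by 1.28 between Ets2KO and WT (limma adjusted p = 0.423), where Ets2KO replicate 3 stands at 2.33 and the other Ets2KO arrays at -0.11 and -0.25. Dlk1, a non-canonical ligand, differed by 2.18 in the same comparison (limma adjusted p = 0.291) and by 0.80 in Ets1KO (limma adjusted p = 0.863). Of the receptors beside Notch1, Notch2 differed from WT by -0.03 in Ets1KO and by 0.12 in Ets2KO, and Notch3, typical of mural cells, differed by 0.08 and by 1.18 (limma adjusted p = 0.985 and 0.379). Between Ets2KO and Ets1KO, where Notch1 differed by 1.95, Notch2 differed by 0.15 (SE 0.30).

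Among genes that process the receptor, none passed in a single loss. The secretase subunit gene Aph1b differed by -1.44 in Ets1KO (limma adjusted p = 0.569) and by -0.61 in Ets2KO (limma adjusted p = 0.645), and the presenilin gene Psen2 by -0.75 in Ets1KO (limma adjusted p = 0.626). The O-fucosyltransferase Pofut1, which primes Notch for ligand binding, differed by 0.53 between Ets2KO and WT (limma adjusted p = 0.151) and by 0.66 between Ets2KO and Ets1KO (limma adjusted p = 0.0799). Its other probe sets differed by 0.20 and 0.02 in the first comparison and by -0.32 and 0.13 in the second. Of the ubiquitin and endocytosis genes Dtx4, of the Deltex ligase family, came nearest, at -1.21 between Ets2KO and WT (SE 0.25, limma adjusted p = 0.0613). It read -1.54, -1.30 and -0.58 in Ets2KO, against -0.12, 0.15 and 0.18 in WT, without overlap, as for 13.6% of all probe sets with Ets2KO lower. Its second probe set differed by -0.54. Numb, the substrate of Lnx1, differed by 0.04 in Ets1KO and by -0.15 in Ets2KO from WT at its brighter probe set.

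None of the nuclear partners and targets passed in a single loss either. Rbpj, the DNA-binding partner of Notch, differed by 0.32 between Ets2KO and WT (limma adjusted p = 0.354) and by 0.46 between Ets2KO and Ets1KO (limma adjusted p = 0.188). The target gene Hes1 differed by 0.67 between Ets1KO and WT (limma adjusted p = 0.692), and the arterial connexin Gja4 by 1.03 in Ets1KO and by -0.88 in Ets2KO (limma adjusted p = 0.815 and 0.689). The cell cycle inhibitor Cdkn1a differed by 1.42 between Ets2KO and WT (limma adjusted p = 0.248), where WT replicate 3 reads 1.15 and the other WT arrays 3.81 and 3.63. Of 21 listed targets 12 have a probe set, and their medians were 0.16 in Ets1KO and -0.07 in Ets2KO against WT.

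**Figure D3:**
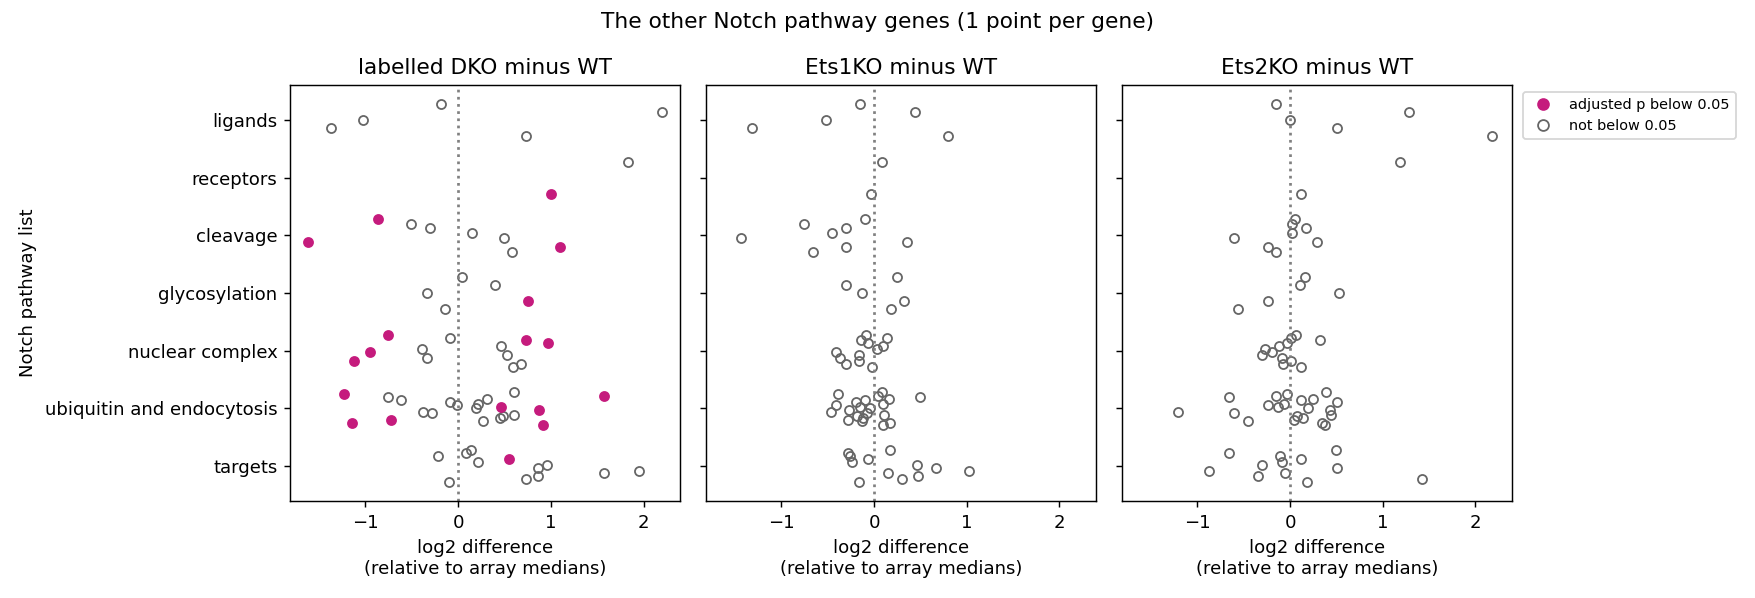
Log2 differences relative to array medians (horizontal axis) of the 65 other Notch pathway genes, in rows by list and 1 point per gene, for the arrays labelled DKO, Ets1KO and Ets2KO, each against WT. Filled points have an adjusted p below 0.05, which 18 genes reach in the first panel and 0 in each of the others.

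In the arrays labelled DKO many of these genes passed, at about the share of all genes. Against WT 18 of 65 did (27.7%, beside 31.7% of all genes), 10 higher and 8 lower, where 20.7% of all genes were called higher and 11% lower. Against Ets1KO 20 did (30.8%, beside 32.7%), 14 higher and 6 lower, where 22.4% of all genes were higher and 10.3% lower. Against Ets2KO 22 did (33.8%, beside 32.8%), 12 higher and 10 lower, where 20.6% were higher and 12.3% lower. As deposited only 9 of the 18, 7 of the 20 and 11 of the 22 were called in the same direction. By role, against WT, the called genes were 0 of 5 ligands, 1 of 2 receptors, 3 of 8 cleavage genes, 1 of 5 glycosylation genes, 5 of 12 nuclear genes, 7 of 21 ubiquitin and endocytosis genes and 1 of 12 targets. These comparisons share the arrays labelled DKO. The interaction passed for 11 of 65 (16.9%, beside 17.4% of all genes), 6 above 0 and 5 below. As deposited 6 of these 11 were called in the same direction.

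Among the genes called lower against WT were Aph1a (-1.62, limma adjusted p = 0.00217) and Psenen (-0.86, limma adjusted p = 0.00247), subunits of the secretase that frees the intracellular part of Notch. The corepressor Ctbp1 (-1.13), the Numb relative Numbl (-1.23), the clathrin adaptor subunit Ap2a1 (-1.15), the deacetylase Hdac1 (-0.95) and the corepressor Spen (-0.75) were lower too. Numbl read -1.26 and -1.17 in the arrays labelled DKO, -0.42, -0.17 and -0.52 in Ets1KO, -0.02, -0.17 and 0.14 in Ets2KO, and 0.14, 0.05 and -0.15 in WT. The arrays labelled DKO lie below all others at Numbl, and it was called lower against Ets1KO (-0.84) and Ets2KO (-1.20) as well. Aph1a, Psenen, Ctbp1 and Ap2a1 were likewise called lower in all 3 comparisons, Aph1a with -1.98 and -1.91 and Ap2a1 with -1.32 and -1.49 against Ets1KO and Ets2KO. The other 2 Aph1a probe sets gave -0.10 and 0.52 against WT.

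Called higher against WT were Notch2 (0.998, limma adjusted p = 0.0430), the coactivator Maml1 (0.97), the Numb kinase Aak1 (0.91), the sheddase Adam17 (1.10), the fringe glycosyltransferase Lfng (0.76) and the target Hey1 (0.55). As deposited each of these differences is lower by 0.79. Lfng (-0.04) and Hey1 (-0.25) then lie below WT, and Notch2 is no longer called. Other lists lose calls too. As deposited 2 of the 3 called cleavage genes, 3 of the 5 nuclear genes and 4 of the 7 ubiquitin and endocytosis genes kept theirs against WT. Against Ets1KO the sheddase Adam10 (1.23), Rbpj (0.88), the coactivator Crebbp (0.98) and the endocytic Eps15 (1.15) were called higher, as were Poglut1 (0.70), Hey1 (0.61) and Hes7 (0.45), which lie below Ets1KO as deposited (-0.15, -0.23 and -0.39). The other 2 Adam10 probe sets were called lower in the same comparison, with -2.12 and -2.45 (limma adjusted p = 0.00110 and 0.000857). Those of Rbpj differed from Ets1KO by -0.41 and -0.59, neither called. Those of Eps15 differed by -0.37 and 1.53 and those of Crebbp by 0.32 and 1.69, the second of each called. Against Ets2KO the coactivator Ep300 (0.83), Lfng (0.996), Dtx4 (0.83) and the arterial ligand Efnb2 (1.20) were called higher, and Pofut1 was called lower (-0.87). As deposited each difference from Ets2KO is lower by 0.77, and only 11 of the 22 called genes kept their call. Of the other Efnb2 probe sets 1 was also higher (1.27) and 2 were called lower, with -1.59 and -2.63 (limma adjusted p = 0.0102 and 0.00255).

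Numb, the substrate of Lnx1, shows how far probe sets part in the arrays labelled DKO. Its brighter probe set read 1.86 and 2.00 there, 0.56, 0.39 and 0.25 in Ets1KO, -0.11, 0.14 and 0.59 in Ets2KO, and 0.31, 0.20 and 0.57 in WT, a difference of 1.57 from WT. Its other probe set read -3.03 and -3.23 in the arrays labelled DKO, against -1.41, -1.53 and -1.37 in WT, a difference of -1.70, and limma called both. Adam17 gave 1.10, -0.45 and -3.30, the first and last called, and Jag1 2.20 and -1.37, neither called. Of 35 pathway genes with several probe sets 5 were called in both directions against WT (Adam17, Cbl, Egfl7, Numb and Rbpj), 3 against Ets1KO (Adam10, Adam17 and Numb) and 6 against Ets2KO (Adam17, Ap2a2, Cbl, Efnb2, Egfl7 and Numb). Against WT so were 9.49% of all 4785 such genes, against Ets1KO 9.09% and against Ets2KO 7.13%. In Ets1KO or Ets2KO against WT limma called 0 of them in both directions. Only 0.00908% and 0.545% of all genes were called there at the brightest probe set, so that 0 cannot show agreement of probe sets. The median gap between the probe sets of a gene was 0.90 over those 4785 genes for the arrays labelled DKO against WT, and 0.17 and 0.24 for Ets1KO and Ets2KO against WT. The Notch1 probe sets differed by 0.31 for the arrays labelled DKO against WT, and by 0.30 and 0.62 in the single losses, above those medians. Between Ets2KO and Ets1KO they differed by 0.93, beside a median of 0.21. For the arrays labelled DKO they differed by 0.93 against Ets2KO and by 0.006 against Ets1KO, beside medians of 0.83 and 0.87. Lnx1 has a single probe set, so no such check exists for it.

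**Figure D4:**
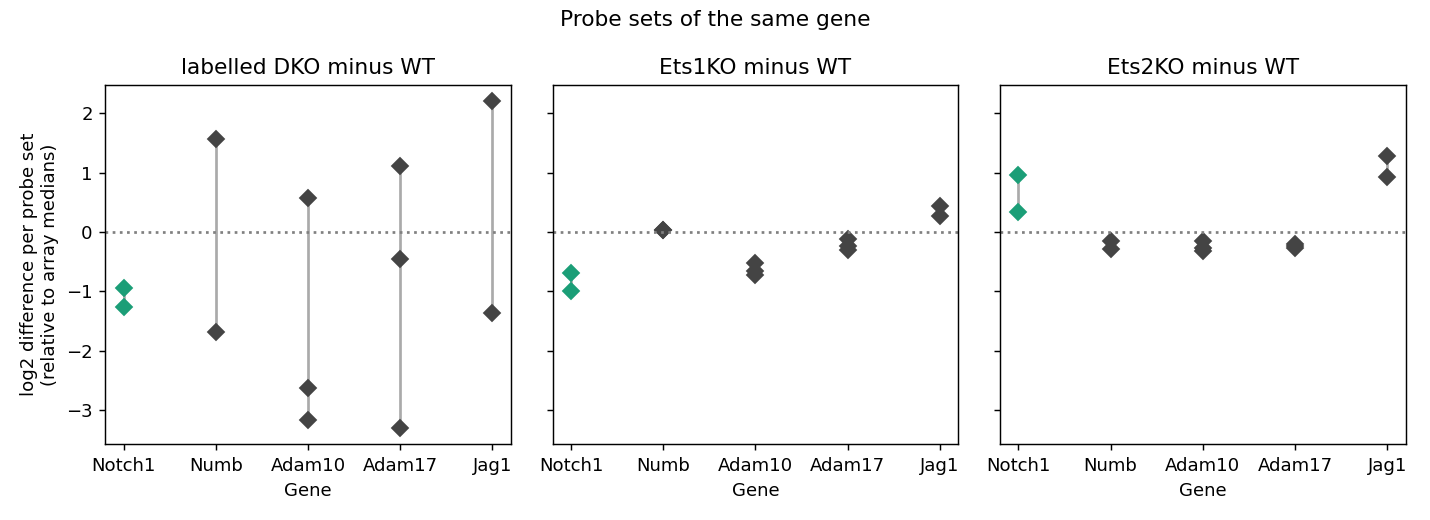
Log2 difference from WT relative to array medians (vertical axis) for each probe set of Notch1 (green) and of Numb, Adam10, Adam17 and Jag1 (grey), with lines joining probe sets of a gene, in the arrays labelled DKO, Ets1KO and Ets2KO. The 2 Notch1 probe sets lie on the same side of 0 in all panels, and those of the other genes lie on both sides in the arrays labelled DKO. The grey genes were picked by hand and do not represent the pathway. Probe sets of Maml1 (0.97 and 0.68) and Aak1 (0.91 and 0.55), not shown, lie on the same side there.

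Genes whose brightest probe set followed each member most closely over the 9 Ets1KO, Ets2KO and WT arrays were listed as a description, with 11014 genes compared. For Notch1 they were Tigd5 (r = 0.98), Tprgl (0.98), the Smad corepressor Ski (0.97), the mitochondrial carrier Slc25a51 (0.97) and Jmjd8 (0.97). With the arrays labelled DKO added, Ski kept r = 0.92 and Jmjd8 0.81, while Tigd5 had 0.18. Ski averaged 0.77 ± 0.45 in the arrays labelled DKO, 0.63 ± 0.19 in Ets1KO, 1.83 ± 0.23 in Ets2KO and 1.37 ± 0.08 in WT.

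For Lnx1 the closest included the Mef2 coactivator Mamstr (r = 0.98), Ppcdc of coenzyme A synthesis (0.98), the interferon gene Ifnz (0.98) and the intramembrane protease Sppl3 (0.98). With the arrays labelled DKO added, Mamstr had r = 0.97 and Sppl3 0.91. Mamstr averaged -3.15 ± 0.02 in the arrays labelled DKO, -3.05 ± 0.09 in Ets1KO, -0.73 ± 0.43 in Ets2KO and -2.87 ± 0.15 in WT, so it stands apart in Ets2KO. Notch1 and Lnx1 followed each other with r = 0.92 over the 9 arrays and 0.94 over 11, and Notch1 stood at rank 97 among the genes closest to Lnx1 over the 9 arrays. The arrays share groups and processing, so these r values rank likeness and test nothing.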

How the data were processed

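Per the submitters' processing notes, the authors made the deposited log2 values with RMA (no version stated there), and the table holds 20523 probe sets of a mouse Affymetrix array in 12 columns. Columns were matched to samples through their titles. Each array's median was subtracted here. Probe sets were named from the platform annotation: 18824 carry 1 symbol, 549 several, and 1150 are unlisted, giving 11015 genes. Linear models with 4 group means were fitted over all probe sets with limma 3.58.1 (lmFit, eBayes) in R 4.3.3, with 7 residual degrees of freedom and p adjusted by Benjamini and Hochberg within a comparison. The fit was tested on simulated data. The number of arrays limits the precision. Figures were drawn with matplotlib 3.10.9 in Python 3.11.15.

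Members, gene lists, the median scale and the omission of the third column labelled DKO were chosen with earlier results of these data known. The interaction was planned as a test for both genes and is given without one, since it contains the difference each was chosen for. Notch1 and Lnx1 were left out of the pathway counts. Of each pathway list, up to 4 called genes per comparison are named by largest difference, or up to 2 where none was called, and of the most similar genes the 5 with the highest Pearson r, of which 1 is not reported here. Others were named after their values were seen: Numb and Numbl in the single losses, Cbl, Egfl7 and Rbpj for their probe sets, and Itch. Promoter sequences are from RefSeq on GRCm38.p6, and both genes had one. Alternatives were deposited values, quantile normalization, a filter on dim probe sets, 1 probe set per gene, array weights, sex, the replicate block, the third column kept, only the groups compared, and leaving out each array.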

Additional observations from a re-analysis of the deposited data

Results flagged for a closer look

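For Lnx1, every Ets2KO array lies above every WT array, and both arrays labelled DKO lie below every Ets1KO array, an interaction of -2.15 relative to array medians. The second of these differences did not pass (-0.46, limma adjusted p = 0.0725). Groups that do not overlap in these directions were common, found for 14.7% and 23.2% of all probe sets. The interaction was not tested, because Lnx1 was chosen for the Ets2KO difference within it.

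The same interaction passed limma for 11 of the 65 other pathway genes, 16.9% beside 17.4% of all genes. Numb, the substrate of Lnx1, had 1.69 (limma adjusted p = 0.00521), but its other probe set had -1.44. The sheddase Adam17 had 1.64 (limma adjusted p = 0.00739), with -2.97 and 0.06 at its other probe sets. Of the secretase subunits Aph1a had -2.27 (limma adjusted p = 0.00363), with -0.42 and 0.09 at its other probe sets, and Psenen had -0.82 (limma adjusted p = 0.0209). The coactivator Maml1 had 1.07 (limma adjusted p = 0.0259), with 1.04 at its other probe set, and the corepressor Ctbp1 had -0.98 (limma adjusted p = 0.0111). Dtx4 of the Deltex family had 1.30 (limma adjusted p = 0.0393), with 0.82 at its other probe set. Of the clathrin adaptor subunits Ap2a1 had -1.66 (limma adjusted p = 0.00533) and Ap2a2 had 0.86 (limma adjusted p = 0.0208), with 0.58, 0.13 and -2.17 at its other probe sets. The remaining 2 were Numbl (-0.81, limma adjusted p = 0.0318) and the ligase Itch (0.75, limma adjusted p = 0.0194), which like Adam17, Ap2a2 and Numb had probe sets called in both directions.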

How the results depend on the processing

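No Notch1 or Lnx1 difference at the brightest probe set changed direction under any alternative run. Against Ets1KO, the arrays labelled DKO differed at Lnx1 by -1.30 as deposited, by -0.57 with quantile normalization and by -0.45 with the third column kept (limma adjusted p = 0.000269, 0.0398 and 0.0276), all called, and at Notch1 by -1.10 as deposited (0.00195). Fitted on the compared groups alone, Lnx1 in the arrays labelled DKO against WT had -0.84 (0.0511). With sex in the model, Ets2KO against Ets1KO gave 1.78 for Lnx1 (0.420) and 1.68 for Notch1 (0.658), and Lnx1 in Ets2KO against WT 1.497. For Notch1, Ets2KO against Ets1KO ran from 1.79 to 2.10 as each array was left out, with the call lost without Ets1KO replicate 2. Notch1 in Ets2KO against WT was called with array weights (0.79, 0.0171) and with the third column kept (0.96, 0.0249). The interaction was -2.97 as deposited and -1.96 with sex for Lnx1, and -2.04 as deposited and -0.96 with array weights for Notch1. Lnx1 lies below the filter on dim probe sets and has no value there.

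Counts of called pathway genes against WT in the arrays labelled DKO were 31 as deposited and 28 with the third column kept, and against Ets1KO 31 with it kept. Against Ets2KO they were 1 with sex and 14 with only those groups. Between Ets2KO and Ets1KO they were 1 with 1 probe set per gene, 19 with array weights, 2 with the third column and 3 with only those groups, and 0 to 1 as arrays were left out. Between Ets2KO and WT they were 5 with array weights, 1 with the third column and 0 to 1 as arrays were left out. For the interaction they were 19 as deposited, 17 with array weights, 20 with the third column and 5 with sex, and 6 to 14 as arrays were left out (7 without Ets1KO replicate 2, 6 without DKO replicate 1). The share of all genes called also changes with the alternative. Against WT, 14.4% of all probe sets were called lower in the arrays labelled DKO relative to array medians and 46% as deposited. Shares for the other alternatives are not given here, so nothing about the pathway is read from these counts.

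Samples with the same replicate number share only a number: over 15 such pairs the deviations from group means had r from -0.31 to 0.10. With a replicate block, Lnx1 in the arrays labelled DKO differed from WT by -0.81 (limma adjusted p = 0.0225) and Notch1 by -1.21 (0.00715). The replicate block changed no call of either gene.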
